A study of Mus musculus with 6 samples.

Results

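The Elovl fatty acid elongases are a family of 7 genes, Elovl1 to Elovl7, whose transcripts were followed here in sciatic nerves of newborn mice. They were chosen by gene symbol: every probe set whose platform annotation gives exactly 1 symbol, equal to a family name, was taken. This gave 19 of the 45101 probe sets on the array and 7 of 18194 named genes. The level of a gene is that of its probe set with the highest mean over all 6 arrays. Nerve samples of double knockout (dKO) pups (n = 3) were set against nerve samples of control pups (n = 3) on postnatal day 2. The dKO pups carried DhhCre, a Cre recombinase expressed from the desert hedgehog gene that is active in the Schwann cell lineage, and lacked Hdac1 and Hdac2 in Schwann cells. The controls are labelled as DhhCre-negative, and the labels do not say which Hdac alleles they carry. All pups were of mixed strain, the perineurium was taken off every nerve, and each sample was hybridised to an Affymetrix Mouse Genome 430 2.0 array. Whether several nerves or pups went into an RNA sample is not stated, so the p-values speak of the spread among these 6 samples, which may be partly technical.

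Elongases sit in the membrane of the endoplasmic reticulum and carry out the first step of fatty acid elongation, the condensation of an acyl-CoA with malonyl-CoA. A ketoacyl reductase, a dehydratase and an enoyl reductase then complete each turn of the cycle. Family members differ in the chains they accept. Elovl1, Elovl3, Elovl6 and Elovl7 act on saturated and monounsaturated chains, Elovl2 and Elovl5 act mainly on polyunsaturated chains, and Elovl4 makes the longest chains of retina, skin and brain. Myelin is rich in sphingolipids whose acyl chains are very long and saturated or monounsaturated, and Schwann cells start to wrap axons with myelin around birth.

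The family moved in both directions in dKO nerves. The saturated-chain elongases Elovl1, Elovl6 and Elovl7 fell, and the polyunsaturated-chain elongases Elovl2 and Elovl5 rose. Elovl4 did not pass the test, and Elovl3 lay under the low-value limit on every array. In RNA of a nerve sample with mixed cell types, fewer cells of a type and less RNA per cell cannot be told apart. Values are log2 expression as deposited, and a change or shift is the dKO mean minus the control mean with its standard error (SE). A gene was tested when 3 or more of the 6 arrays gave it a log2 value of 4 or higher, and called when limma's p-value, adjusted by the Benjamini-Hochberg method over all 14550 genes tested, was under 0.05. Of the 6 tested members, 3 were called lower and 2 higher. Among all genes tested, 22.0% were called, 9.38% lower and 12.6% higher. Control and dKO values did not overlap for 5 of the 6 members, against 40.9% of all genes tested. The absolute change had a median of 1.88 over the 6 members and of 0.28 over all genes tested. The signed changes had medians of -0.87 over the members and 0.01 over all genes.

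**Figure D1:**
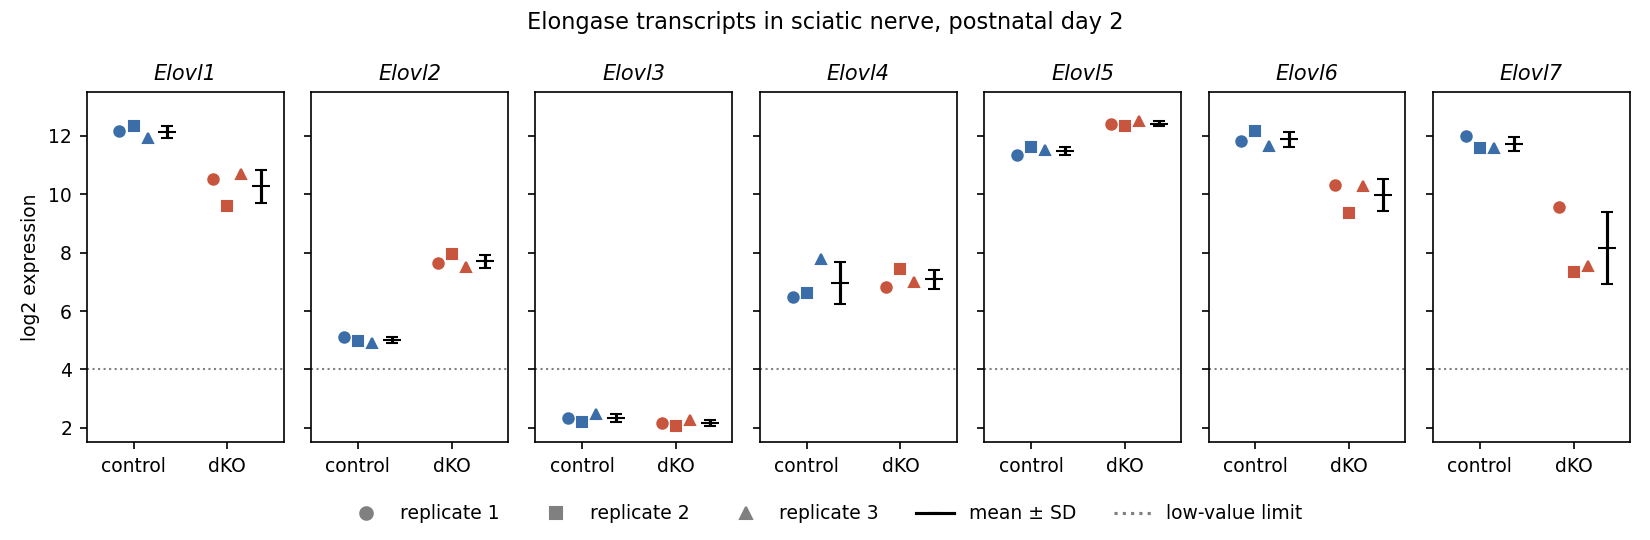
Log2 expression (y axis) of each elongase on the 6 arrays, with control in blue and dKO in red. Each symbol is 1 array, the black bars give the mean ± SD (n = 3 per group), and the dotted line is the low-value limit of 4. The Elovl7 points spread from 7.33 to 9.56 in dKO, and those of Elovl5 lie between 12.33 and 12.51.

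The promoters of a strongly lowered, a less strongly lowered and a raised member are shown to let their sequence be set beside their changes. They are RefSeq windows of mouse assembly GRCm38.p6, from 250 bases before to 50 bases after the annotated start, read 5′ to 3′ on the gene's strand, and 6 of the 7 members had a window. Capitals mark matches, on either strand, to any of 5 motifs: the sterol response element TCACNCCAC, the E-box CACGTG, the CCAAT box, the Egr motif GCGNGGGCG and the Sox motif ACAAAG. Elovl7 lies at chr13:108214154-108214453 on the + strand, Elovl6 at chr3:129532136-129532435 on the + strand, and Elovl5 at chr9:77917115-77917414 on the + strand.
Elovl7: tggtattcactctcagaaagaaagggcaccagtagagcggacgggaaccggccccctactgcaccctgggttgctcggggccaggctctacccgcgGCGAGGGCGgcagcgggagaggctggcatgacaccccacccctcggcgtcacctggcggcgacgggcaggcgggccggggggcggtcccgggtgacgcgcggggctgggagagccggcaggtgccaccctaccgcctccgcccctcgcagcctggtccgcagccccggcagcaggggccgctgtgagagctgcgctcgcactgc
Elovl6: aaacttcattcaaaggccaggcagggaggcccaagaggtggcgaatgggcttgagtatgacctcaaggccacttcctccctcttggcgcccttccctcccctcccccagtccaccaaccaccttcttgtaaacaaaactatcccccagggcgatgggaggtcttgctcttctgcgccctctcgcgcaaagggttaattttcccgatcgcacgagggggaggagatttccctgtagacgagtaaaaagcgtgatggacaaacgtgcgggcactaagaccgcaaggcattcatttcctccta
Elovl5: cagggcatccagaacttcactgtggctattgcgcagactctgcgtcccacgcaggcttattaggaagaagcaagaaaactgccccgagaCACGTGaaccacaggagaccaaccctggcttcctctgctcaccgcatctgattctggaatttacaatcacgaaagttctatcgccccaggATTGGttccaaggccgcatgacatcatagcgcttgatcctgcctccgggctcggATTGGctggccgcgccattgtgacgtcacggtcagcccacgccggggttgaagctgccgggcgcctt

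The Elovl7 window held 1 match, to the Egr motif, starting at position -154 from the annotated start. The Elovl6 window matched none of the 5 motifs. The Elovl5 window held 1 E-box at -161 and 2 CCAAT boxes, at -71 and -17 on the opposite strand, where they read ATTGG in the printed sequence. Elovl1 has 2 windows, 1 with a CCAAT box and 1 with an Egr match, and the 2 overlapping Elovl2 windows together held 3 Egr matches and 1 Sox match. The Elovl4 window held 1 E-box and 1 CCAAT box. Over all 32851 promoter windows of that length, 5.55% held an Egr match, 7.15% an E-box, 37.4% a CCAAT box, 18.7% a Sox match and 1.24% a sterol response element. No member window held a sterol response element in these letters, which says nothing of binding. GC content bears on how often a GC-rich motif is met, and its median over all windows was 52.7%. It was 74.0% for Elovl7, 76.7% and 84.7% for Elovl2, 55.7% for Elovl6 and 57.7% for Elovl5. The Elovl4 window, with no Egr match, had 71.0%. For Elovl1 it was 70.7% in the window with the CCAAT box and 59.0% in that with the Egr match.

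Elovl7, which extends saturated long-chain acyl-CoAs, had the largest change of the family. Its log2 values were 12.01, 11.58 and 11.59 in control 1, 2 and 3, and 9.56, 7.33 and 7.54 in dKO 1, 2 and 3. Every dKO array lay under every control array, with a gap of 2.02 between the nearest values, and dKO 1 stayed above the other dKO arrays. The mean went from 11.73 ± 0.25 to 8.14 ± 1.23 (SD, n = 3 per group), a shift of -3.59 (SE 0.52, adjusted p = 0.00213). This left 8.33% of the control level, with a 95% confidence interval of 3.64% to 19.1%, and it was the 19th lowest fitted change among the 14550 genes. Without dKO 1 the change was -4.29.

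Elovl6, which elongates palmitate to stearate, fell on every dKO array. Its log2 values were 11.81, 12.16 and 11.66 in control 1, 2 and 3, and 10.33, 9.34 and 10.27 in dKO 1, 2 and 3. The groups were 1.33 apart at their nearest values, and dKO 2 was the lowest array. The mean of 11.88 ± 0.26 in control nerves was followed by 9.98 ± 0.55 in dKO nerves, a shift of -1.90 (SE 0.28, adjusted p = 0.00213). The dKO level was 26.9% of the control level (95% confidence interval 17.4% to 41.6%).

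Elovl1, which supplies very long saturated and monounsaturated chains for sphingolipids, fell as well. Its log2 values were 12.17, 12.33 and 11.92 in control 1, 2 and 3, and 10.51, 9.61 and 10.68 in dKO 1, 2 and 3. The groups did not overlap, and dKO 2 was again the lowest array. The shift was -1.87 (SE 0.28, adjusted p = 0.00227), from 12.14 ± 0.21 to 10.27 ± 0.57. The dKO level was 27.3% of the control level (95% confidence interval 17.6% to 42.3%).

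Elovl2, which elongates long polyunsaturated chains, was low in control nerves and rose. Its log2 values were 5.11, 4.96 and 4.92 in control 1, 2 and 3, all not far above the low-value limit, and 7.64, 7.96 and 7.50 in dKO 1, 2 and 3. Every dKO array lay at least 2.39 above every control array. The mean went from 4.99 ± 0.10 to 7.70 ± 0.24, a shift of 2.71 (SE 0.16, adjusted p = 7.45e-05). This is 6.52-fold, with a 95% confidence interval of 5.04-fold to 8.43-fold. It was the 61st highest fitted change of all genes tested, and it rests on a single probe set.

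Elovl5, which acts earlier in the polyunsaturated pathway and also on palmitoleate, rose by less. Its log2 values were 11.34, 11.61 and 11.52 in control 1, 2 and 3, and 12.40, 12.33 and 12.51 in dKO 1, 2 and 3. The nearest values of the groups were 0.72 apart, and the arrays within each group lay close together. The mean went from 11.49 ± 0.14 to 12.41 ± 0.09, a shift of 0.92 (SE 0.14, adjusted p = 0.00271), or 1.90-fold (95% confidence interval 1.52-fold to 2.37-fold).

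Elovl4, the elongase of the longest chains, had overlapping groups. Its log2 values were 6.48, 6.61 and 7.78 in control 1, 2 and 3, and 6.82, 7.43 and 7.0 in dKO 1, 2 and 3. Control 3 was the highest array, and the other 2 control arrays were the lowest. The shift was 0.13 (SE 0.34, adjusted p = 0.822), with a 95% confidence interval of -0.65 to 0.91, so a change of up to 1.87-fold upward or to 63.8% of the control level lies within it. The sign turned when single arrays were left out, with -0.11 without control 1, -0.05 without control 2 and -0.05 without dKO 2, and the change was 0.54 without control 3 (adjusted p = 0.14).

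Elovl3, an elongase of brown fat, skin and liver, had log2 values of 2.33, 2.19 and 2.47 in control 1, 2 and 3, and 2.17, 2.05 and 2.26 in dKO 1, 2 and 3. All 6 lay under the limit of 4, so the gene was not tested and no change is given.

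The probe sets of each called gene pointed the same way. Of the 18 probe sets above the limit, 12 were called lower and 3 higher in a fit over all 33975 probe sets that passed it, of which 15.8% were called. All 6 probe sets of Elovl7 fell, with changes of -4.04 to -3.49 (adjusted p of 0.00419 or lower). All 4 probe sets of Elovl1 fell, with changes of -2.38 to -1.87 (adjusted p of 0.00399 or lower). Of these, 3 including the brightest have names ending in _x_at, which Affymetrix gives to sets whose probes can match other transcripts. The remaining Elovl1 probe set, 1425676_a_at, changed by -2.38. Both Elovl5 probe sets rose, by 0.90 and 0.92, and the brighter of them is an _x_at set. Of the 3 Elovl6 probe sets, 1417403_at and 1417404_at fell, with changes of -1.87 and -1.90, whereas the dimmest, 1442656_at, changed by -0.77 and did not pass (adjusted p = 0.144). On that probe set control and dKO values overlapped, and without dKO 1 its change was -1.08 (adjusted p = 0.0461). Averaging all probe sets of a gene gave a change of -1.51 for Elovl6, -2.08 for Elovl1 and -3.73 for Elovl7. Neither Elovl4 probe set passed, with changes of 0.13 and 0.26.

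**Figure D2:**
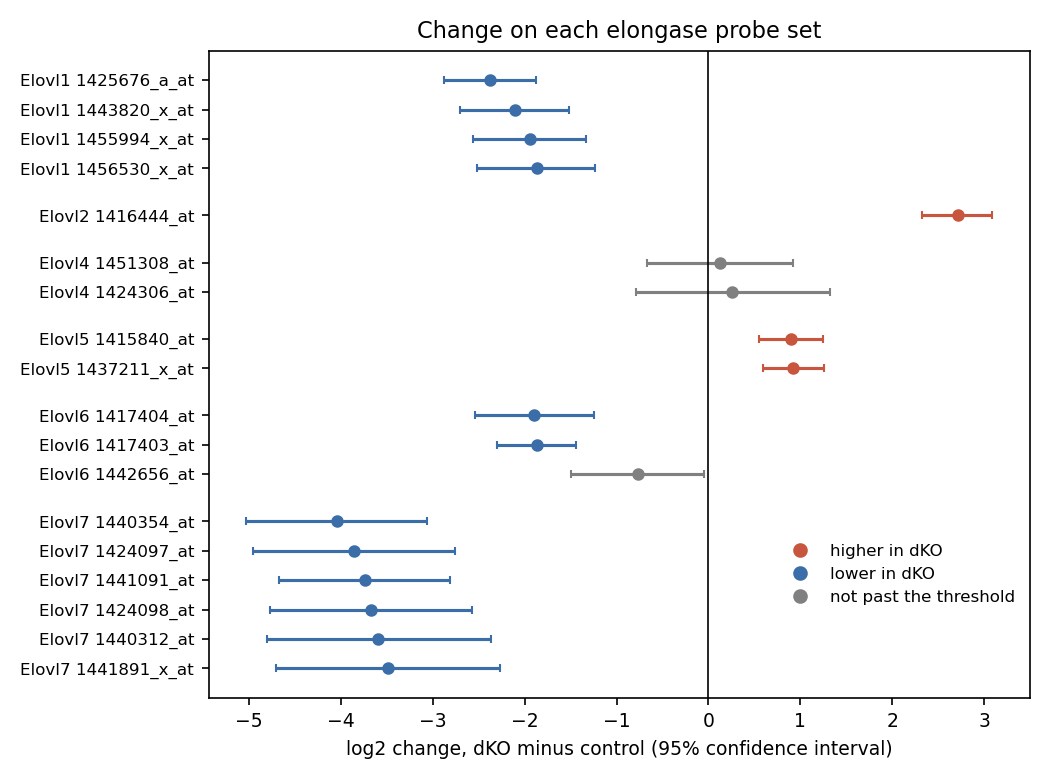
Log2 change, dKO minus control (x axis), of each elongase probe set above the low-value limit (y axis), with its 95% confidence interval from limma. Blue points were called lower, red points higher, and grey points did not pass the threshold. The 6 Elovl7 probe sets lie between -4.04 and -3.49, and the 2 Elovl5 probe sets coincide at 0.90 and 0.92.

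Changes of members were also compared directly, as the difference between their log2 values within each array. Only the change of this difference between groups has meaning, because the levels of different probe sets are not on a common scale. Elovl5 minus Elovl6 shifted by 2.82 (SE 0.31), from -0.39 ± 0.22 in control to 2.43 ± 0.49 in dKO nerves. Elovl5 minus Elovl7 shifted by 4.51 (SE 0.75), and Elovl2 minus Elovl5 by 1.78 (SE 0.23). For each of these the groups did not overlap. Elovl6 minus Elovl7 shifted by 1.69 (SE 0.62), with values of -0.20, 0.58 and 0.07 in control 1, 2 and 3 and of 0.77, 2.02 and 2.73 in dKO 1, 2 and 3. The groups did not overlap there either, with dKO 1 nearest to the controls. For each of these 4 shifts a two-sided exact permutation test gave p = 0.1, the smallest p that 3 against 3 arrays allow, and p = 0.125 when adjusted over the 5 comparisons made. The fifth, Elovl1 minus Elovl6, shifted by 0.02 (SE 0.09, exact p = 0.7). With all probe sets of each gene averaged, it shifted by -0.57 (exact p = 0.1).

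The dKO arrays did not order the members alike. Relative to the control mean, Elovl7 was at -2.17 in dKO 1, -4.40 in dKO 2 and -4.18 in dKO 3. Elovl6 was at -1.55, -2.53 and -1.61, and Elovl1 at -1.63, -2.53 and -1.46. Thus, on the probe sets that stand for the genes, dKO 1 stood apart for Elovl7, and dKO 2 for Elovl6 and Elovl1. Other probe sets gave other orders. Elovl6 probe set 1442656_at was at -0.15, -1.10 and -1.07 in dKO 1, 2 and 3, so dKO 1 stood apart there. All 6 Elovl7 probe sets were highest in dKO 1. On 1424097_at and 1441891_x_at, however, dKO 3 lay between the other dKO arrays, at -3.88 and -3.36. All 3 _x_at probe sets of Elovl1 were lowest in dKO 2, whereas 1425676_a_at was at -1.97, -2.40 and -2.78 in dKO 1, 2 and 3 and so lowest in dKO 3. For Elovl2 the same arrays were at 2.64, 2.97 and 2.51, and for Elovl5 at 0.91, 0.84 and 1.02. Xist, which is made from the inactive X chromosome, was at 11.55 in control 2, 11.67 in dKO 2 and 11.24 in dKO 3 and at most 5.31 on the other arrays, so dKO 1 was the only dKO sample without it. Eif2s3y was at 10.88, 11.07 and 10.99 in control 1, control 3 and dKO 1, and at most 5.41 on the other arrays. Among controls, Elovl7 was 11.58 in control 2, where Xist was high, and 12.01 and 11.59 in control 1 and control 3. By these genes sex was unevenly split between the groups, with Xist high in control 2 alone among controls but in dKO 2 and dKO 3. The part of sex in the Elovl7 spread, or in any change between dKO and control, was not tested.

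**Figure D3:**
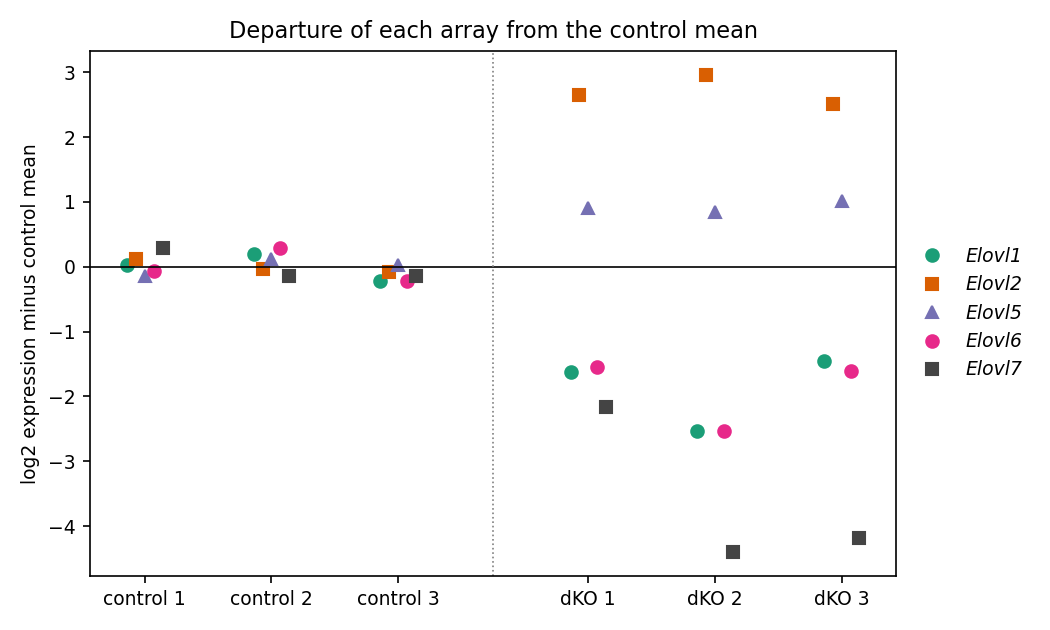
Log2 expression minus the control mean of the same gene (y axis) for the 5 called elongases on each of the 6 arrays (x axis). On the probe sets drawn, Elovl1 and Elovl6 lie together on all 6 arrays, with -2.53 each in dKO 2, and Elovl7 lies at -2.17 in dKO 1 against -4.40 and -4.18 in the other two.

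Among the enzymes that complete the elongation cycle and the acyl-CoA binding genes listed with them, Hsd17b12, Tecr and Tecrl fell. All 9 listed genes were tested, with a median log2 change of -0.39. In limma 3 fell and 0 rose, where 9.38% of all genes tested were called lower and 12.6% higher. At an unadjusted p under 0.05 the counts of the list were 4 and 2. The share of all genes under that unadjusted threshold is not given, here or for the lists below. For both directions together it cannot be lower than the 22.0% called after adjustment. Hsd17b12, the ketoacyl-CoA reductase of the cycle, was at 10.48, 10.40 and 10.65 in control 1, 2 and 3 and at 9.80, 9.86 and 9.92 in dKO 1, 2 and 3. The groups did not overlap, and the gene fell by 0.65 (SE 0.14, adjusted p = 0.0112). Tecr, the trans-enoyl-CoA reductase of the last step, fell by 0.70 (SE 0.21, adjusted p = 0.0437), with dKO 3 lowest at 11.68. That call was lost when any 1 of the control arrays, dKO 1 or dKO 3 was left out, where the adjusted p reached 0.124. Tecrl, a relative of Tecr, went from 5.11 ± 0.14 to 3.57 ± 0.08 in dKO. All dKO arrays lay under the limit of 4, which makes the gene at least 2.16-fold lower (adjusted p = 0.000311). It passed the low-value filter only through the control arrays, and without it 2 genes of the list fell.

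None of the 4 dehydratases of the cycle passed limma's adjusted threshold, and their changes had both signs. Hacd1 had a change of -0.65 (SE 0.39, adjusted p = 0.281) and passed without dKO 3, where it was -1.12, and with probe sets averaged, where it was -0.84. Its dKO values were 8.28, 7.72 and 9.41 in dKO 1, 2 and 3. Hacd2 and Hacd4 had changes of 0.43 and 0.65 (adjusted p = 0.0835 and 0.0569), and their dKO arrays all lay above the control arrays. Hacd2 passed without dKO 3, where it was 0.56. Hacd4 passed without control 3 or dKO 1, under a limit of 6, with probe sets averaged and with a replicate block. It has 1 probe set, so under the limit of 6 and with averaging its own values were unchanged. Only the set of genes fitted with it differed there. Hacd3 had a change of -0.17 (adjusted p = 0.42). The acyl-CoA binding genes Acbd5 and Dbi had changes of -0.39 and -0.14 (adjusted p = 0.079 and 0.559), and Acbd5 passed with arrays centred on their median (adjusted p = 0.0443).

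Genes that supply malonyl-CoA and acyl chains for elongation were lower in part. Of 8 tested, 3 fell and 0 rose in limma (5 and 0 at an unadjusted p under 0.05), with a median of -0.41. Over all genes tested, 9.38% were called lower and 12.6% higher after adjustment. These shares are no background for the unadjusted counts, for which none is given. Acaca, the acetyl-CoA carboxylase that makes malonyl-CoA, fell from 9.91 ± 0.20 to 8.60 ± 0.19 (shift -1.31, SE 0.17, adjusted p = 0.00117). Fasn, the synthase that makes palmitate, the substrate of Elovl6, fell by 1.2 (SE 0.23, adjusted p = 0.00718). Acss2, which makes acetyl-CoA from acetate, fell by 1.13, a call lost when control 2, dKO 1 or dKO 2 was left out, where the adjusted p reached 0.0619. Acly and Slc25a1, which bring citrate carbon to cytosolic acetyl-CoA, had changes of -0.37 and -0.45 (adjusted p = 0.0989 and 0.182), and Acly passed with arrays centred on their median or with an intensity trend.

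Of the desaturases, the stearoyl-CoA desaturases and Fads6 fell. Of 8 tested, 3 fell and 0 rose in limma (5 and 0 at an unadjusted p under 0.05), with a median of -0.44. Over all genes tested, 9.38% were called lower and 12.6% higher after adjustment, and the unadjusted shares are not given. Scd1 and Scd2, the stearoyl-CoA desaturases that act on palmitate and stearate, both fell. The change was -1.45 for Scd1 (SE 0.22, adjusted p = 0.00291) and -1.10 for Scd2 (SE 0.31, adjusted p = 0.0364). The call of Scd2 was lost when any 1 control array or dKO 2 was left out (adjusted p up to 0.0925). Fads6, a desaturase family member, fell by 1.83, a call lost without control 2 or dKO 2 (adjusted p up to 0.0638). Fads1 and Fads2, the desaturases that alternate with Elovl5 and Elovl2 in the polyunsaturated pathway, had changes of -0.49 and -0.40 (adjusted p = 0.304 and 0.0692). For Fads1 the value was 10.88 in dKO 3 and 12.06 and 12.07 in dKO 1 and dKO 2, within the control range of 12.06 to 12.34. Fads2 passed with probe sets averaged (-0.47, adjusted p = 0.0372) and with arrays centred on their median (-0.48, adjusted p = 0.0383). Degs1, the dihydroceramide desaturase that forms ceramide, had a change of -0.30 (adjusted p = 0.136, or 0.042 with an intensity trend).

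Among genes of sphingolipid synthesis, which include those for myelin galactolipids and general ones, 8 of 13 tested fell and 2 rose, with a median of -0.68. The shares called over all genes tested were 9.38% lower and 12.6% higher. The lower count was 6 of 13 with a replicate block and when control 1, control 2, control 3 or dKO 1 was left out. Fa2h, which hydroxylates the acyl chains of galactolipids, fell by 4.05 (SE 0.60, adjusted p = 0.00226). Ugt8a, which makes galactosylceramide, fell by 3.12 (SE 0.40, adjusted p = 0.00127). Gal3st1, the sulfatide-forming sulfotransferase, fell by 1.99. Cers2, the ceramide synthase that uses very long acyl-CoAs, fell from 10.10 ± 0.06 to 8.85 ± 0.11 (shift -1.24, SE 0.13, adjusted p = 0.00062). Cers6, a ceramide synthase that prefers shorter chains, rose by 1.17 (SE 0.26, adjusted p = 0.0159). Sgms2, a sphingomyelin synthase, lay under the limit in 2 of 3 controls and was 1.95-fold higher in dKO with those 2 values set to 4 (adjusted p = 0.00829). Sgms2 passed the low-value filter only through the dKO arrays, and without it Cers6 is the only gene of the list that rose. Cers5 and Sgms1 had changes of -0.42 and 0.00 (adjusted p = 0.0837 and 0.985), and Cers5 passed with probe sets averaged or an intensity trend. Sptlc3 and Cers3 were under the limit.

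Genes of fatty acid activation and uptake showed no common direction. Of 9 tested, 2 fell and 2 rose, with a median of 0.08. The shares called over all genes tested were 9.38% lower and 12.6% higher. Acsbg1, an acyl-CoA synthetase for very long chains, rose from 5.29 ± 0.55 to 7.26 ± 0.21 (shift 1.97, SE 0.27, adjusted p = 0.00162). Acsl3, a long-chain acyl-CoA synthetase, fell by 0.84 (SE 0.15, adjusted p = 0.00477). The fatty acid translocase gene Cd36 rose by 0.87 and the transporter gene Slc27a1 fell by 0.47. The Cd36 call was lost when any 1 array but dKO 1 was left out, where the adjusted p reached 0.109, and with probe sets averaged. The Slc27a1 call was lost when any 1 array was left out, where the adjusted p reached 0.11, with probe sets averaged and with a replicate block. Acsl5 and Acsl4 had changes of 0.08 and 0.43 (adjusted p = 0.771 and 0.185). Of 6 tested genes that import very long chains into peroxisomes or oxidise them there, 0 were called in limma and 1 had an unadjusted p under 0.05. This was Abcd3, a peroxisomal membrane transporter, with a change of -0.41 (adjusted p = 0.0658), and it passed with arrays centred on their median or with an intensity trend. Hsd17b4 had a change of 0.32.

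Among regulators of lipid synthesis, 3 of 15 tested genes fell and 1 rose, with a median of -0.27. Of all genes tested, 9.38% were called lower and 12.6% higher, so these counts alone do not set the list apart. Srebf1, the sterol response element binding factor known for driving fatty acid genes such as Elovl6, had log2 values of 7.80, 8.22 and 7.68 in control 1, 2 and 3 and of 7.61, 7.49 and 8.08 in dKO 1, 2 and 3. The groups overlapped, and the change was -0.17 (SE 0.21, adjusted p = 0.6). Srebf2, the related factor of sterol genes, fell by 0.82 (SE 0.17, adjusted p = 0.0114), and Insig1, a sterol-regulated membrane anchor of this pathway, fell by 1.5 (SE 0.18, adjusted p = 0.000879). Ppara, a nuclear receptor for fatty acids, fell by 1.53 (SE 0.27, adjusted p = 0.00536). The coactivator gene Ppargc1a rose by 1.56 (SE 0.29, adjusted p = 0.0067). Mbtps1 and Rxra had changes of -0.05 and 0.40 (adjusted p = 0.834 and 0.0772). Mlxipl was under the limit.

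**Figure D4:**
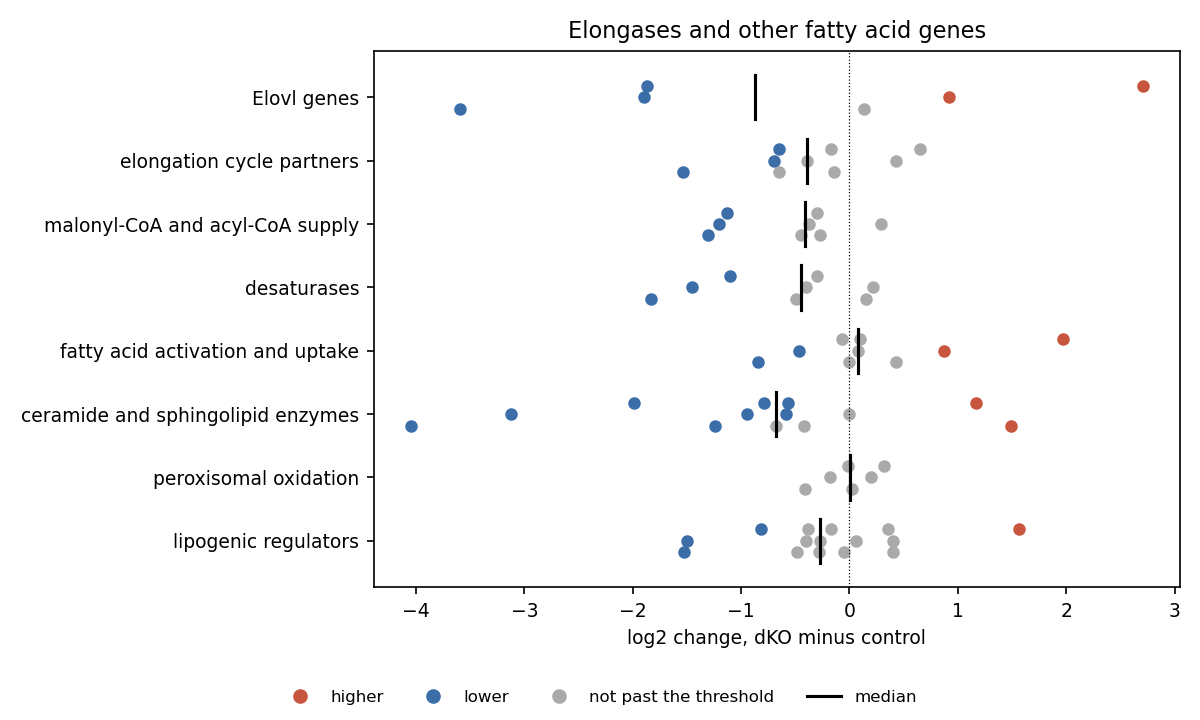
Log2 change, dKO minus control (x axis), of each tested gene in the family and in 7 lists of other fatty acid genes (y axis). Blue points were called lower, red points higher, grey points did not pass the threshold, and black bars are list medians. The elongation cycle partners lie between -1.54 and 0.65, and the elongases between -3.59 and 2.71.

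Genes whose pattern over the 6 arrays was most like that of each called member were taken by the root mean square (RMS) difference of log2 values, each gene centred on its own mean. For Elovl1 the nearest pattern of all was that of Elovl6, with an RMS difference of 0.09. This likeness holds for the _x_at probe set that stands for Elovl1, and 1425676_a_at followed another order, with 8.92, 8.50 and 8.11 in dKO 1, 2 and 3. Outside the family, Mras (0.131), Mansc1 (0.139), St6gal1 (0.15) and Sema3b (0.156) came next for Elovl1. Mansc1 (0.114), St6gal1 (0.165), Mras (0.171) and Radil (0.182) came next for Elovl6. Mras encodes a Ras-related GTPase, St6gal1 a sialyltransferase and Sema3b a secreted semaphorin. Mansc1, with log2 values of 7.96, 8.49 and 8.15 in control 1, 2 and 3 and 6.53, 5.65 and 6.66 in dKO 1, 2 and 3, was lowest in dKO 2, like both elongases.

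For Elovl7 the nearest genes were Dusp15 (RMS difference 0.175), 9530059O14Rik (0.285), Cldn19 (0.29) and Rnf128 (0.313). Dusp15 encodes a dual specificity phosphatase, Cldn19 a claudin of Schwann cell tight junctions and Rnf128 a ubiquitin ligase. Dusp15 was at 9.62 in dKO 1, 7.60 in dKO 2 and 7.80 in dKO 3, so it shared the higher value in dKO 1. For Elovl2 they were Lrp11 (0.103), Camkv (0.166), Bex2 (0.167) and Spock3 (0.18), and for Elovl5 Trim25 (0.066), Psip1 (0.069), Tnfaip8 (0.072) and Cd44 (0.072). Lrp11 rose by 2.63 (SE 0.15) and Trim25, a ubiquitin ligase, by 0.81 (SE 0.14, adjusted p = 0.00461). These are descriptions over 6 arrays in 2 groups, in which any gene of like change comes close.

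The arrays matched their labels at the targeted genes, with Hdac1 at 34.1% and Hdac2 at 41.8% of the control level (adjusted p = 0.000271 and 0.00103). Over the tested genes arrays correlated at 0.980 to 0.991 within a group and at 0.925 to 0.963 between groups. Marker genes of the cell types a nerve sample can hold were summed on the linear scale. Counts of markers called stand beside 9.38% of all genes tested called lower and 12.6% called higher after adjustment. For counts at an unadjusted p no such share is given. The 6 measured Schwann cell markers, none of them under the limit on every array, summed to 8030 to 10100 in control and 5500 to 6630 in dKO nerves, with 1 called higher and 2 lower. S100b, a calcium-binding protein gene, and Erbb3, the neuregulin receptor gene, each fell by 1.33 (adjusted p = 0.00761 and 0.00684), to 39.7% of the control level. Ngfr, the neurotrophin receptor gene of immature Schwann cells, rose by 1.0 (adjusted p = 0.00419). Sox10, the factor of the Schwann cell lineage, had a change of -0.36 (adjusted p = 0.371). The 6 fibroblast markers summed to 39400 to 42300 in control and 44700 to 47100 in dKO nerves, with 3 called higher, or 1 without control 2 or dKO 2. The 6 macrophage markers summed to 1210 to 1710 and 2010 to 4070, with 1 called higher, 2 without dKO 1, and 0 in limma without control 2, control 3 or dKO 2. The 6 neuron markers summed to 1270 to 1760 and 1880 to 2420, and Snap25 was called higher, with a second gene without control 2. Nefl, the brightest of the 6 and most of the sum, had a change of 0.54 and was not called (adjusted p = 0.11). Prph, Syt1, Nefm and Tubb3 had changes of 0.54, 0.23, -0.02 and -0.05 and were not called either. The median of the neuron markers was 0.39, or 0.06 with probe sets averaged. The 6 endothelial markers summed to 893 to 1200 and 1250 to 1790, with 0 called in limma and 3 higher at an unadjusted p under 0.05, and 1 or 2 were called with probe sets averaged, without dKO 1 or with a replicate block. The 6 muscle markers summed to 108 to 157 and 122 to 134, with Myog under the limit on every array. Of the 10 measured adipocyte markers, Adipoq, Cidea and Lep were under the limit on every array. The 10 summed to 1150 to 2480 in control and 5460 to 9110 in dKO nerves, a sum that moved with Fabp4. Fabp4 was the single adipocyte marker called higher in limma, and other cell types express it as well. At an unadjusted p under 0.05, 3 of the 7 tested were higher and 0 lower, and these included Lpl and Lipe, with changes of 1.12 and 0.50. The changes of the 7 ran from -0.36 to 2.30, with a median of 0.07. The part of the other cell types in the elongase changes was not tested.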

How the data were processed

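Gene expression was measured on 6 Affymetrix arrays, 3 dKO and 3 control, grouped by the sample titles. The table deposited by the authors holds 1 log2 value for each probe set and array. The submitters' processing notes name GCOS 1.2 and GCRMA, and settings are not given in the sources used here. That the scale is log2 follows from the range of the values. Sorted, the 6 arrays were equal to within 0.01, so their distributions had been equalised and a shift shared by all genes would not show. Values under the limit of 4 carry little meaning as levels. No other per-sample column was present.

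Symbols came from the platform annotation, brought up to date by gene ID against the RefSeq table of GRCm38.p6. Of 45101 probe sets, 34958 had 1 symbol, 932 several, and 9211 were not named here. The limit left 14550 genes and removed 3644. limma 3.58.1 in R 4.3.3 (lmFit, eBayes, no covariates) compared dKO with control. Over all genes tested the SE had a median of 0.17, and the number of arrays limits the precision. Where a group lay under the limit, folds use values raised to 4.

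The members, lists and rules were chosen with earlier results of these data known. All 7 members, every elongation cycle gene, up to 6 called and 2 other genes of each further list, and 4 genes of like pattern per called member were named. Fads2, Srebf1 and the marker genes given with values fall outside this rule and were named after their values were seen. Listed genes that were not measured under their own symbol were not analysed here. Alternatives were no low-value limit, a limit of 6, averaged probe sets, arrays centred on their median, an intensity trend, a replicate block and leaving out each array.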

Additional observations from a re-analysis of the deposited data

How the results depend on the processing

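The calls and directions of Elovl1, Elovl2, Elovl5, Elovl6 and Elovl7 held under all 12 alternatives, with changes of -2.08 to -1.55, 2.57 to 2.80, 0.85 to 0.98, -2.07 to -1.51 and -4.29 to -3.18 and adjusted p of at most 0.0122. For Elovl2 some of these are no separate check. It has a single probe set, which averaging leaves as it is, and it passed the limit of 6 only through the dKO arrays. Elovl4 was not called under any of the 12 alternatives, and its change ran from -0.11 to 0.54 with single arrays left out, with -0.11 without control 1 and -0.05 without control 2 or dKO 2. Same-numbered arrays did not deviate together (correlations of 0.04, -0.12 and -0.23), so the replicate number was not taken as a pairing. A replicate block changed no member's call (Elovl7 -3.59, adjusted p = 0.00147), gave 1 elongation cycle gene called higher instead of 0, 1 activation gene called lower instead of 2, and 6 sphingolipid genes called lower instead of 8. The number of genes called lower ran from 891 (without control 2) to 1331 with single arrays left out, against 1365. With arrays centred on their median, which moved the median change of all genes to -0.07, 49.4% of called genes were higher against 57.3%.

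Elongation cycle genes called higher numbered 1 under a limit of 6 and with probe sets averaged, and 0 to 1 with single arrays left out. With single arrays left out, desaturases called lower ran from 1 to 3, activation and uptake genes called higher from 1 to 2, and those called lower were 1 each time, against 3, 2 and 2. Over the other alternatives these counts were 3 to 4, 1 to 3 and 1 to 2. Sphingolipid genes called lower ran from 6 to 8 with single arrays left out and from 6 to 9 over the other alternatives. With probe sets averaged, 1 activation gene was called higher and 1 lower. Of the sphingolipid list 1 was called higher under a limit of 6. Of the peroxisomal list 1 was called lower with centred arrays or an intensity trend. Elovl1 minus Elovl6 shifted by -0.57 with probe sets averaged and by -0.04 to 0.08 with single arrays left out, with -0.02 without control 2 and -0.04 without dKO 3. Turns of sign among values near 0 were -0.20 for Elovl4 probe set 1424306_at without control 1 (range -0.20 to 0.84 over single arrays left out), -0.11 for 1451308_at without control 1 and -0.05 without control 2 or dKO 2. They were also -0.05 for Acsl5 without control 3 (-0.05 to 0.17), 0.04 for Mbtps1 without control 2 (-0.16 to 0.04), and 0.01, 0.03 and 0.01 for Sgms1 without control 3, dKO 1 and dKO 2 (-0.06 to 0.03). The cause was not tested.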
